A study of Mus musculus with 3 samples.

Results

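The cells described here are committed erythroid progenitors of mouse bone marrow, defined by their own transcripts. A cell was taken as a member when it carried at least 2 molecular identifiers (UMIs, each marking a captured transcript) of Klf1, at least 1 of Ermap, 0 of Gata2 and at most 1 of Slc4a1, and when it had at least 200 detected genes and at most 5% of its UMIs from mitochondrial genes. In all, 1092 of 31292 cells that passed the last 2 limits met the gate, 234 in the Control library, 428 in the IR library and 430 in the IR+CBD library. The gate used the counts of 4 genes, so the levels of these genes in the members, and every contrast of the members with the cells outside the gate, are given as a description.

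Red cells form from early progenitors that still express the transcription factor GATA2 and that pass through burst-forming (BFU-E) and colony-forming (CFU-E) stages. In the course of this, GATA1 takes the place of GATA2, and the factor KLF1 switches on genes for heme, globins, the blood group proteins and the red cell membrane. At the CFU-E stage the cells divide fast, depend on erythropoietin and take up iron through the transferrin receptor, and only afterwards do they fill with hemoglobin and the anion exchanger encoded by Slc4a1. Erythroid progenitors are sensitive to radiation, and the marrow makes them again in large numbers during recovery.

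All 3 libraries were prepared from male C57BL/6 mice at day 14, and each was pooled from the femur marrow of 3 mice. The Control mice were not irradiated, the IR mice received 6 Gy of gamma irradiation from Cobalt-60 and the solvent, and the IR+CBD mice received the same irradiation with cannabidiol (CBD), a plant cannabinoid, injected intraperitoneally before and after it. The sample label of the IR+CBD library names the CBD treatment only, and its irradiation is taken from the study's methods. Sorted fractions were remixed before loading at 5 parts of Lin-Kit+ to 4 of Lin-Kit- and 1 of Lin+, so a share of cells below refers to that mix and not to the marrow. No cell can be traced to a mouse, each group is 1 library, and no test between groups is possible. Ratios between libraries are given with 95% intervals that cover counting error only and leave out the variation between mice. For levels of genes they also leave out the variation between cells.

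The deposited matrices held 36035 barcodes and between 177806843 and 206932522 UMIs per library. The members were deep cells, with a median of 40188.5 UMIs (Control), 42270.5 (IR) and 38883.5 (IR+CBD), against medians of 11619 to 13119 in the other kept cells. Their median mitochondrial share was 1.23%, 1.26% and 1.28%. Between 35 and 51 barcodes were shared by any 2 libraries, and of the members 1, 1 and 5 cells had a barcode that also occurred in another library, where none of them was a member. Scrublet predicted 26 of the Control members, 62 of the IR members and 64 of the IR+CBD members to be doublets, and these were kept.

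The members matched their name by their markers. Klf1, the erythroid Krüppel-like factor, stood at 226, 238 and 229 counts per 1000000 UMIs (CPM) in the Control, IR and IR+CBD libraries, where CPM is taken over the summed UMIs of a library's members. Ermap, an erythroid membrane protein of the Scianna blood group, stood at 295, 287 and 305 CPM. The 2 markers outside the gate, Car1 (carbonic anhydrase 1) and Tfrc (the transferrin receptor), were higher in the members than in the other kept cells. Car1 had 3391, 1730 and 2295 CPM in the members and 309, 511 and 552 CPM in the other kept cells, and Tfrc 186, 239 and 275 CPM against 55.4, 88.1 and 92.7 CPM. Shares of cells with a UMI are not read as expression at this depth, since S100a8, a neutrophil gene, had a UMI in 94.9%, 95.3% and 96.7% of the members. Car2, the carbonic anhydrase of red cell progenitors and mature red cells, was even at 3231, 3265 and 3256 CPM. Genes of later erythroblasts were low: Alas2, the erythroid enzyme of the first step of heme synthesis, had 2.17, 2.003 and 2.09 CPM in the members and 100.1, 132 and 152 CPM in the cells that met the gate but for 2 or more Slc4a1 UMIs. Most members lay well inside the gate. The median member held 9 Klf1 UMIs and 11 Ermap UMIs in each library, and only 12, 18 and 24 members had exactly 2 Klf1 UMIs, while 14, 23 and 25 cells were left out with 1. The Gata2 limit cut closest, since 126, 284 and 255 cells with a single Gata2 UMI were left out beside 164, 543 and 388 cells with 2 or more, and all of these are called Gata2-positive neighbours below.

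Committed erythroid progenitors made up 2.19% of the kept cells of the Control library (95% interval 1.92 to 2.49%, 234 of 10674), 4.14% of the IR library (3.76 to 4.54%, 428 of 10345) and 4.19% of the IR+CBD library (3.81 to 4.59%, 430 of 10273). The share was 1.89 times as high in IR as in Control (interval 1.61 to 2.22), and in IR+CBD it was 1.01 times that in IR (0.883 to 1.16). The 2 irradiated libraries thus held nearly the same share of these cells. The stages on either side did not show the same evenness. Gata2-positive neighbours made up 2.72%, 7.99% and 6.26% of the 3 libraries, and their share in IR+CBD was 0.783 times that in IR (0.705 to 0.869). Cells of the same gate with 2 or more Slc4a1 UMIs, the later stage, made up 0.187%, 0.764% and 0.457%, from 20, 79 and 47 cells, and their ratio of IR+CBD to IR was 0.599 (0.408 to 0.870). As a consequence, the members were 44.7% of the members and Gata2-positive neighbours together in Control (40.3 to 49.0%), 34.1% of them in IR (31.5 to 36.8%) and 40.1% of them in IR+CBD (37.1 to 43.1%). The comparison of the irradiated libraries depended on depth: among cells with at least 20000 UMIs the members made up 5.70%, 9.38% and 11.6%, a ratio of IR+CBD to IR of 1.24. When every cell was first thinned to 5000 UMIs and the gate applied afterwards, 95, 250 and 189 cells met it. The same ratio was then 0.752, and that of IR to Control was 2.83. These cells need not be members, since a cell with Gata2 UMIs at full depth can show 0 after thinning.

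**Figure D1:**
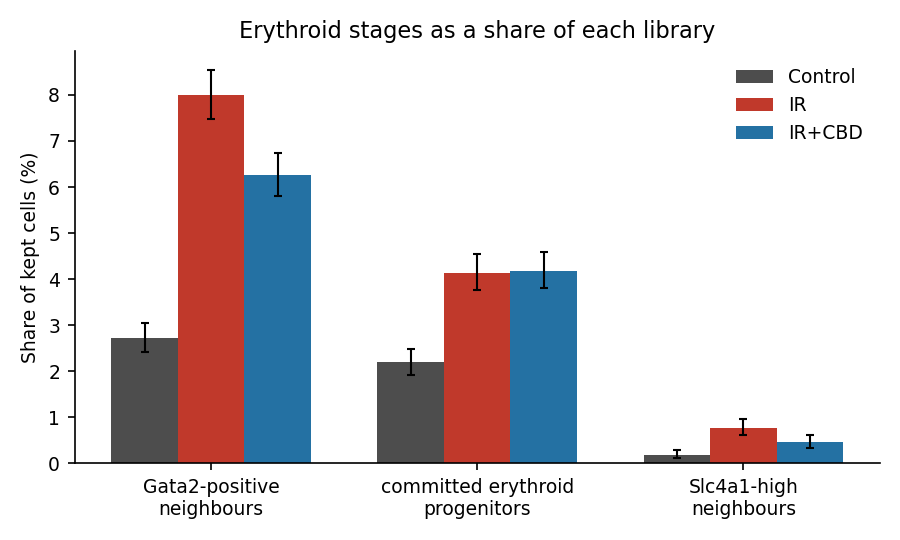
Share of the kept cells of each library (%, vertical axis from 0) in 3 neighbouring erythroid stages, with Clopper-Pearson 95% intervals for counting error as bars. For committed erythroid progenitors the IR and IR+CBD bars stand side by side at 4.14% and 4.19%, above 2.19% in Control, whereas among the Gata2-positive neighbours IR stands highest at 7.99%.

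The genes with the highest ratio of members over the other kept cells are given here as a description. Among genes with at least 100 UMIs, the highest ratio of members over all other kept cells was that of Pdia2, a protein disulfide isomerase, at 10.4, with 9.51, 10.4 and 11.1 CPM in Control, IR and IR+CBD. Cldn13, Rhd and Tspan8 held ranks 9, 14 and 17 by this ratio. Cldn13, a claudin found in mouse erythroid cells, stood at 191, 228 and 219 CPM in the members, a ratio of 8.16. Rhd, the Rh blood group D antigen, stood at 270, 286 and 299 CPM, a ratio of 7.79, and Tspan8, a tetraspanin, at 85.7, 78.4 and 87.4 CPM, a ratio of 7.78. Against the neighbouring stages Cldn13 and Rhd were graded: Cldn13 had 134 CPM in the Gata2-positive neighbours and 569 CPM in the Slc4a1-high cells, and Rhd had 190 and 661 CPM. Spon2, a secreted matrix protein which held rank 3 with a ratio of 9.52, differed between the libraries, at 16.1, 5.79 and 8.55 CPM, a ratio of IR to Control of 0.359 (0.278 to 0.462).

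The transcription factors of the erythroid programme had a median ratio of IR to Control close to that of all genes. Of 22 such genes compared between IR and Control, 0 passed a 1.5-fold limit in either direction, and the median log2 ratio was 0.07. Of all 9683 genes with at least 100 UMIs in the members of both libraries together, 260 were at least 1.5-fold higher in IR (2.69%). Another 153 were at least 1.5-fold lower (1.58%), and the median log2 ratio over all these genes was 0.02. At these shares a list of this size would hold few such genes, so the 0 alone is not read as a result. Gata1, the main erythroid factor, had 115, 109 and 115 CPM in Control, IR and IR+CBD. Tal1, its partner in a DNA-bound complex, had 95.7, 83.1 and 86.2 CPM, and Lmo2, the adaptor of that complex, had 325, 331 and 331 CPM. Myb, a factor of immature proliferating progenitors, was somewhat lower in IR, with 203, 172 and 197 CPM and a ratio to Control of 0.849 (0.802 to 0.898). In IR+CBD over IR, 0 of the 22 factors passed the limit either, where 60 of 10119 genes were higher (0.593%) and 163 lower (1.61%). These 2 comparisons share the IR library, and the 2 that involve Control share that library, so their ratios are not independent.

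Receptors and signal carriers of erythropoietin and Kit had a median ratio of IR to Control close to 1, while Kit itself was lower in IR. Across the alternatives tried, the Kit ratio of IR to Control lay between 0.662 and 0.843. Epor, the erythropoietin receptor, had 87.0, 94.2 and 86.4 CPM. Kit, the receptor for stem cell factor, was found at 84.4 CPM (Control), 60.2 (IR) and 75.8 (IR+CBD), which gave ratios of 0.713 for IR over Control (0.651 to 0.782) and 1.26 for IR+CBD over IR (1.16 to 1.36). The Gata2-positive neighbours showed 124, 87.2 and 99.1 CPM of Kit, so the same order of libraries was seen 1 stage earlier. None of the 11 genes compared from this list passed 1.5-fold in IR over Control, where 2.69% of all genes were higher and 1.58% lower. The median log2 ratio of the 11 was -0.02.

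Of the 4 markers, Car1 differed most between the libraries. It stood at 3391 CPM in Control, 1730 CPM in IR and 2295 CPM in IR+CBD. Control was highest and IR lowest. The ratio of IR to Control was 0.510 (0.503 to 0.518), that of IR+CBD to IR 1.33 (1.31 to 1.35) and that of IR+CBD to Control 0.677 (0.667 to 0.687). Car1 was the single gene of 24 CFU-E stage genes past 1.5-fold in IR over Control, where 2.69% of all genes were higher and 1.58% lower. The median log2 ratio of that list was 0.05. The difference was spread over the cells: after thinning to 5000 UMIs, the median member held 32 Car1 UMIs per 10000 (Control), 14 (IR) or 20 (IR+CBD), with quartiles of 20 to 47.5, 4 to 28 and 10 to 32, so that the libraries overlapped broadly. The Gata2-positive neighbours showed the same order, with 3587, 2015 and 2609 CPM. All other kept cells, which include these neighbours, had 309, 511 and 552 CPM. The neighbours made up 2.72%, 7.99% and 6.26% of the 3 libraries, and the part of this mix in the Car1 level of the other kept cells was not tested. Across the alternatives tried, the ratio of IR to Control stayed between 0.502 and 0.530.

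**Figure D2:**
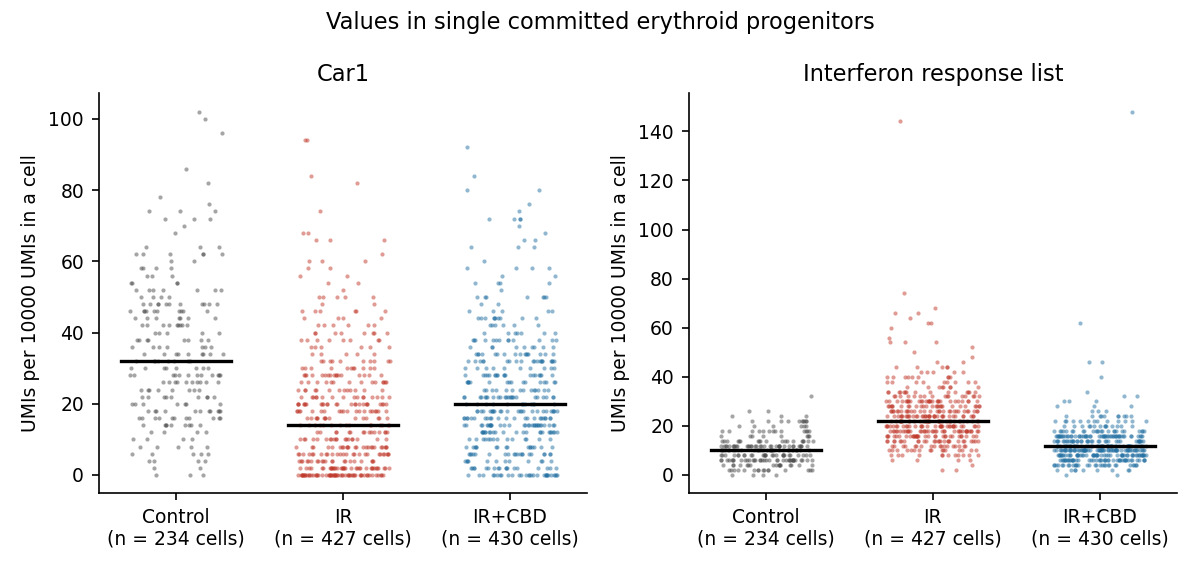
Car1 (left) and the summed interferon response list (right) in single members, in UMIs per 10000 UMIs after thinning each cell to 5000 UMIs, with 1 point per cell and the median as a line. Car1 medians are 32, 14 and 20 and interferon medians 10, 22 and 12 in Control, IR and IR+CBD, and the clouds of points of the 3 libraries overlap in both panels.

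No iron or heme gene compared passed the 1.5-fold limit in IR over Control, where 2.69% of all genes were higher and 1.58% lower. Tfrc stood at 186, 239 and 275 CPM in the same order of libraries, with ratios of 1.29 for IR over Control (1.22 to 1.36) and 1.15 for IR+CBD over IR (1.10 to 1.198). Fth1, the heavy chain of the iron store ferritin, had 4295, 4965 and 4768 CPM. None of 18 iron genes passed 1.5-fold in either of these comparisons. In IR+CBD over IR, 0.593% of all genes were higher and 1.61% lower. In IR over Control 5 of the 18 had a ratio below 1, with a median log2 ratio of 0.06. Heme synthesis genes had a median log2 ratio of 0.17 in IR over Control, with 13 of 15 genes compared above a ratio of 1 and 0 past 1.5-fold. The median of all genes compared was also above 0, at 0.02. Under the gate on thinned cells the heme median was 0.0441. Abcb10, a mitochondrial transporter needed for heme synthesis, had 49.3, 63.2 and 67.8 CPM, a ratio of IR to Control of 1.28 (1.15 to 1.43). Fech, the enzyme that inserts iron, had 82.4, 98.8 and 101 CPM, while Alad, an early enzyme, was even at 262, 262 and 266 CPM.

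Adult globin transcripts were present at a low level and higher in the irradiated libraries. Hbb-bt, an adult beta globin, was found at 102 CPM (Control), 209 (IR) and 211 (IR+CBD), a ratio of IR to Control of 2.05 (1.91 to 2.20). Hba-a1, an adult alpha globin, had 227, 333 and 363 CPM, and Hbb-bs, the other adult beta globin, 139, 219 and 247 CPM. The 2 beta globins passed 1.5-fold in IR over Control and all 4 adult globins did in IR+CBD over Control, where 1.58% of 9536 genes were higher. The sequences of these paired globin genes are nearly alike, so reads could be split between Hba-a1 and Hba-a2 and between Hbb-bs and Hbb-bt. Few cells carried most globin UMIs: per 10000 UMIs the median member held 2 in each library and the 90th percentile was 18, 28 and 30. The order of the irradiated libraries was not stable, since under the gate on thinned cells the globin median of IR+CBD over IR was -0.92 on the log2 scale, in place of 0.11, and that of IR+CBD over Control was -0.16 in place of 0.76. Membrane and skeleton genes had a median log2 ratio of 0.09 over 21 genes in IR over Control. None of these passed the limit, where 2.69% of all genes were higher and 1.58% lower. Rhag, the Rh-associated glycoprotein, had 148, 180 and 174 CPM, and Ank1, which ties the skeleton to the membrane, 144, 155 and 159 CPM.

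Transcripts of the cell cycle were present at similar levels in the members of each library. Mki67, which encodes the proliferation marker Ki-67, stood at 297, 296 and 337 CPM, against 195, 189 and 195 CPM in the other kept cells. S phase genes summed to 48.5, 52.6 and 51.9 UMIs per 10000 and G2/M genes to 95, 99.1 and 97.9. None of 43 S phase genes and none of 53 G2/M genes passed 1.5-fold in IR over Control or in IR+CBD over IR. Of all genes, 2.69% were higher and 1.58% lower in the first comparison, and 0.593% and 1.61% in the second. In IR over Control the median log2 ratios of the S phase and G2/M genes were 0.09 and 0.08. Pcna, the sliding clamp of DNA replication, had 348, 396 and 381 CPM, and Rrm2, the subunit of ribonucleotide reductase that limits nucleotide supply, 153, 191 and 183 CPM. Calls of the phase from these scores put 5.98% of Control members (14 of 234, 3.31 to 9.83%), 1.17% of IR members (5 of 428, 0.380 to 2.71%) and 2.09% of IR+CBD members (9 of 430, 0.961 to 3.94%) in G1. At 5000 UMIs per cell the same shares were 5.13%, 1.17% and 2.79%. Before thinning, the calls put 92.7%, 97.2% and 96.7% of the members in G2/M. The G1 shares thus rest on few cells, and no order of libraries is read from them. In each library 29.1% to 31.9% of the cells lay near a boundary between phases, and the split between S and G2/M changed with depth, from 1.28%, 1.64% and 1.16% in S before thinning to 8.97%, 10.3% and 9.77% after it, so these calls rank no library by S phase. Free RNA enters such scores as well, and its part was not tested.

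Among cyclins and inhibitors of their kinases, single genes differed between the libraries. Ccnd2, cyclin D2, which drives entry into the cycle, stood at 61.4, 55.0 and 36.0 CPM, a ratio of IR+CBD to IR of 0.655 (0.592 to 0.724). It was lowest in IR+CBD, and in the Gata2-positive neighbours the same ratio was 0.726. Ccnd1, cyclin D1, had 8.06, 15.1 and 17.4 CPM. Its ratio of IR to Control was 1.87 (1.45 to 2.44), which became 0.905 under the gate on thinned cells. It was the single gene of 23 past 1.5-fold in IR over Control. Of all genes, 2.69% were higher there and 1.58% lower, so this count is near the share over all genes. Cdk6, the kinase that D cyclins activate, had 484, 414 and 431 CPM.

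Genes of the p53 response follow DNA damage. None of 23 passed 1.5-fold in IR over Control, where 2.69% of all genes were higher and 1.58% lower. The median log2 ratio of the 23 was 0.05. In IR+CBD 2 of the 23 were at least 1.5-fold lower than in IR, where 1.61% of all genes were, and 2 were lower than in Control, where 1.47% were. Of the DNA repair genes, none of 34 passed the limit in IR over Control, with a median of 0.04. Mdm2, the inhibitor and target of p53, had 33.8, 33.2 and 33.6 CPM and Bax, a promoter of apoptosis, 183, 203 and 184 CPM. Cdkn1a, which encodes the cycle inhibitor p21, stood at 6.61, 6.77 and 4.36 CPM, a ratio of IR+CBD to IR of 0.645 (0.478 to 0.865). Bcl2l11, the death-promoting protein Bim, had 35.4, 22.4 and 26.9 CPM, a ratio of IR to Control of 0.631 (0.545 to 0.730). It was the 1 apoptosis regulator of 18 past the limit in IR over Control, where 2.69% of all genes were higher and 1.58% lower. Oxidative phosphorylation genes differed little, with 0 of 78 past 1.5-fold and a median of -0.00 in IR over Control.

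Among the lists in the plot of list medians, the interferon response had the median farthest from that of all genes in both comparisons shown there. Interferons bind a receptor whose signal activates a complex of transcription factors, and this complex binds promoters at a repeat of the bases GAAA, the interferon-stimulated response element. Of 58 genes on the list, 46 reached 100 UMIs in the Control and IR members together, and 43 of these were at least 1.5-fold higher in IR, where 2.69% of all genes compared were. The median log2 ratio was 1.57 (range over 13 alternatives 1.28 to 1.65). In IR+CBD over IR, 36 of 47 genes were at least 1.5-fold lower, where 1.61% of all genes were, all 47 had a ratio below 1, and the median was -0.92. IR+CBD did not stand at the level of Control, with 15 of 39 genes still at least 1.5-fold higher, 1 lower, where 1.58% and 1.47% of all genes were, and a median of 0.38, which was 0.21 under the gate on thinned cells. A gene at low counts in Control reached the comparison mainly through IR, so these counts describe the genes that passed the minimum and not the whole list. The list summed to 10.3 UMIs per 10000 (Control), 24.3 (IR) and 12.7 (IR+CBD).

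To show the element in genes that differed, the 250 bases before the transcription start of 3 of them are printed here from RefSeq (GRCm38.p6, matched by symbol), each read in the direction of its gene, with matches to GAAANNGAAA on either strand in capitals. Overlapping matches run together, and a match on the opposite strand appears as its reverse complement.
Isg15, chr4:156200819-156201068, minus strand: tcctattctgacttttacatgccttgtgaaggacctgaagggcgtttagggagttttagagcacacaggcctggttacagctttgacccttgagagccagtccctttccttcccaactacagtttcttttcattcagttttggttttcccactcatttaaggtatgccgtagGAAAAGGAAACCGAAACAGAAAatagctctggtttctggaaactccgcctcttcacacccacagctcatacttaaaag
Ifit1, chr19:34640639-34640888, plus strand: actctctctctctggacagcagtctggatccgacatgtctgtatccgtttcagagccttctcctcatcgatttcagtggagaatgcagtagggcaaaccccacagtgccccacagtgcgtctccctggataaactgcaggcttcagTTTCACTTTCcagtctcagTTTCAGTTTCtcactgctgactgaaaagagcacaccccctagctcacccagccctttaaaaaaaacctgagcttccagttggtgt
Bst2, chr8:71537473-71537722, minus strand: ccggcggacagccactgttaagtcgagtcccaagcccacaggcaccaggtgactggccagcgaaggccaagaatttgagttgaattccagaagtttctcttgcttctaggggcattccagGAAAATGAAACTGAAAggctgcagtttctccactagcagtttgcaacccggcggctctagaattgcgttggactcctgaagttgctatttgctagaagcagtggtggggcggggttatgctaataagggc
The letters occur 3 times in the Isg15 window, the nearest ending 57 bases before the start, and 2 times each in those of Ifit1 and Bst2. Of all 27025 genes with a promoter there, 936 hold a match within this length of at least 1 of their promoters (3.46%). Of the 42 interferon genes with a promoter there, 20 do (47.6%). So do 3 of 17 genes of MHC class I and peptide loading, 1 of 14 heme synthesis genes and 0 of 18 CFU-E stage genes. Among the interferon genes compared in the members, the 14 with a match had a median log2 ratio of IR to Control of 2.12 (range 0.37 to 3.68) and the 20 without one 1.32 (-0.16 to 5.37), so the ranges overlapped. A match of these letters is not proof of a bound site, and its absence here says nothing of sites elsewhere.

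Isg15, a ubiquitin-like modifier, was found at 15.3 CPM (Control), 100.1 (IR) and 42.7 (IR+CBD). The ratio was 6.55 for IR over Control (5.53 to 7.79) and 0.426 for IR+CBD over IR (0.391 to 0.465), and the latter was 0.215 under the gate on thinned cells. Irf7, the factor that amplifies interferon production, had 5.17, 43.9 and 11.0 CPM. Rtp4, a chaperone of receptors induced by interferon, had 3.62, 42.4 and 8.09 CPM. Both were highest in IR and lowest in Control. Bst2 (tetherin, which holds viruses at the cell surface) had 88.6, 255 and 115 CPM, and Ifitm3, which blocks viral entry, 99.5, 305 and 124 CPM. Ifi44, of unclear function, rested on 3 UMIs in Control, with 0.310, 12.8 and 0.698 CPM and a ratio of 41.4 (14.0 to 202). Ifit1, which binds foreign RNA, had 0.930, 11.9 and 4.71 CPM. The neighbouring member Ifit2 did not share the pattern, with 5.27, 4.71 and 4.54 CPM and a ratio of IR to Control of 0.893 (0.625 to 1.29). In single cells the list was raised across the IR members rather than in a few: the 10th percentile was 12 UMIs per 10000 in IR, above the median of 10 in Control, and the median in IR+CBD was 12. B cells of the 3 libraries held 22.2, 47.3 and 22.6 UMIs per 10000 of the list. Free RNA of other cells can enter the values of the members, and its part was not tested. The Gata2-positive neighbours and the other kept cells ran the same way, with medians of IR over Control of 1.35 and 1.22 and of IR+CBD over IR of -1.13 and -0.98.

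**Figure D3:**
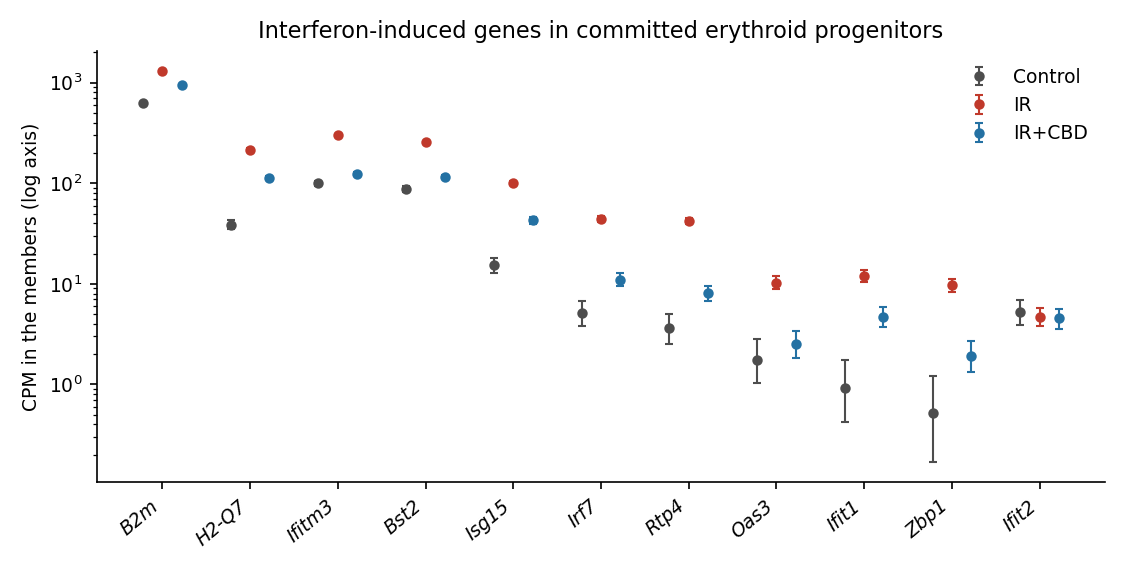
Level of 11 interferon-induced and MHC class I genes in the members, in CPM on a log axis, with exact Poisson 95% intervals as bars (where none is seen, it is smaller than the point). IR stands above Control and IR+CBD for every gene shown but Ifit2, whose values are 5.27, 4.71 and 4.54 CPM.

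Genes of MHC class I present peptides on the cell surface. Of 19 compared, 11 were at least 1.5-fold higher in IR than in Control, where 2.69% of all genes were, with a median log2 ratio of 0.86. In IR+CBD 3 were at least 1.5-fold lower than in IR, where 1.61% of all genes were, with a median of -0.43. B2m, the light chain, stood at 635, 1311 and 953 CPM, a ratio of IR to Control of 2.07 (2.01 to 2.13). H2-Q7, a nonclassical heavy chain whose family members share sequence, had 38.5, 217 and 114 CPM, and H2-K1, a classical one, 293, 532 and 428 CPM. Psmb9, a subunit of the immunoproteasome that cuts the peptides, had 53.7, 124 and 84.7 CPM. In contrast, H2-M3, which presents formylated peptides, was even at 6.20, 6.12 and 5.06 CPM. IR+CBD lay between Control and IR for all of the first 4.

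Immediate early genes, which respond to stimuli within minutes and also to the handling of cells, had medians below 0 against Control. Of 27 compared, 7 were at least 1.5-fold lower in IR than in Control, where 1.58% of all genes were, and 1 was higher, where 2.69% were, with a median log2 ratio of -0.28. In IR+CBD over Control 4 of 26 were lower, where 1.47% of all genes were, and 0 higher, with a median of -0.26. Egr1, a zinc finger factor, had 24.9, 12.02 and 15.6 CPM, a ratio of IR to Control of 0.482 (0.400 to 0.581), and Fos, a subunit of AP-1, 50.5, 33.6 and 30.7 CPM. Nr4a1, an orphan nuclear receptor, had 7.65, 1.79 and 2.56 CPM. The 1 gene that was higher was Cebpb, a leucine zipper factor, with 32.8, 50.01 and 36.0 CPM. In the other kept cells the ratios of IR to Control of Egr1, Fos and Nr4a1 were 0.451, 0.544 and 0.276, so the other kept cells had lower levels as well.

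**Figure D4:**
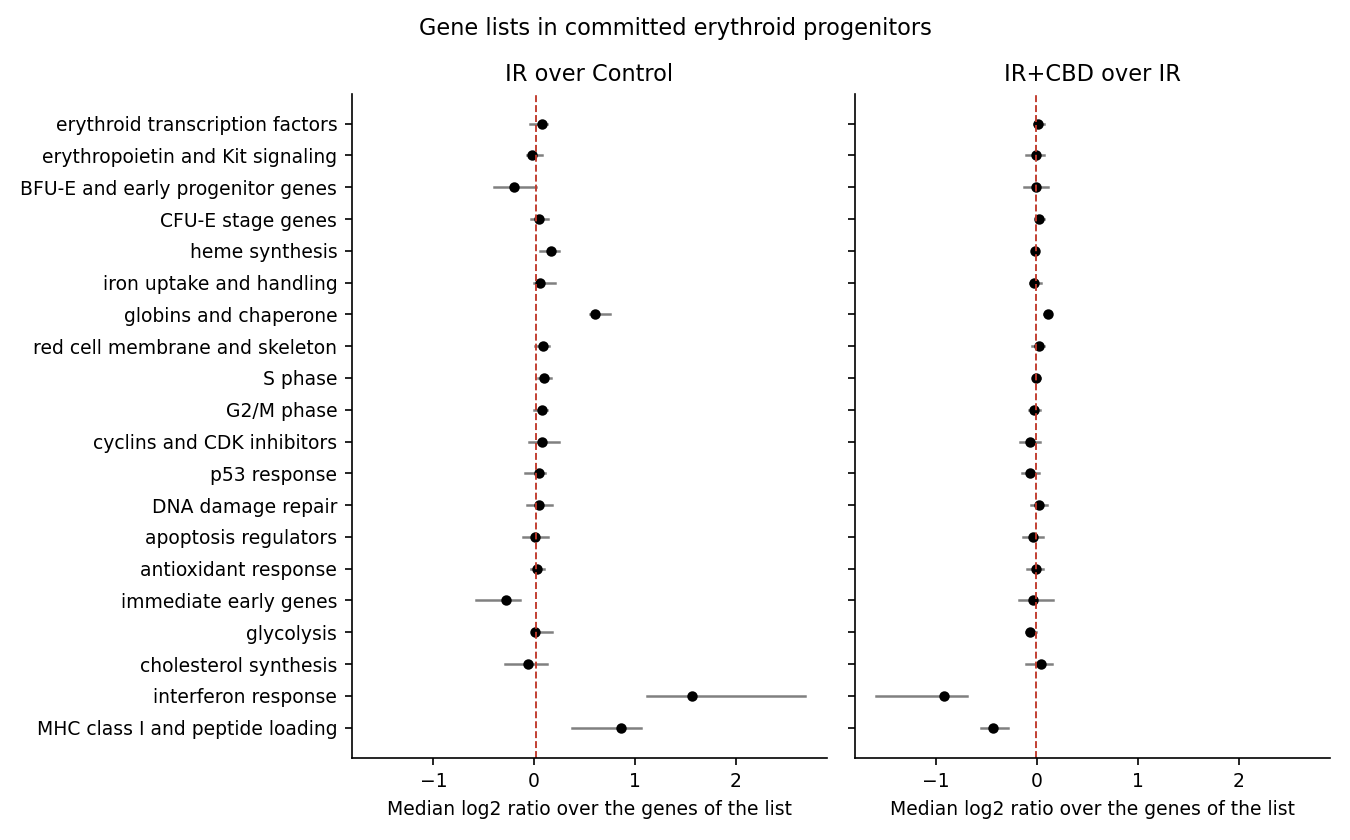
Median log2 ratio in the members of the gene lists named on the left, which leave out the markers of other cell types, for IR over Control (left) and IR+CBD over IR (right), with the 25th to 75th percentile over the genes of the list as a grey line and the median of all genes compared as a dashed line. Among the lists shown, those of interferon and MHC class I lie farthest from it in both panels, at 1.57 and 0.86 on the left and -0.92 and -0.43 on the right, the globins stand at 0.61 on the left, and most other lists lie within 0.2 of the dashed line.

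For some single genes past the limit, the number of cells with a UMI, out of 234, 428 and 430 members, is given beside the level. These numbers show how many cells carried the UMIs and are not read as expression. Tceal3, a small protein related to elongation factor TFIIS, stood at 11.5, 0.704 and 1.75 CPM and was found in 55, 10 and 22 cells. Khdrbs3, an RNA-binding splicing regulator, had 15.7, 3.19 and 3.78 CPM and was found in 99, 38 and 46 cells. Both were lower in both irradiated libraries, with ratios of IR to Control of 0.0613 (0.0317 to 0.109) and 0.203 (0.148 to 0.276), and they were lower in the other kept cells too, at 0.401 and 0.398. Smo, the signal transducer of the Hedgehog pathway, had 15.8, 6.12 and 7.62 CPM. Slc15a2, a peptide transporter, stood at 4.44, 0.758 and 7.62 CPM and was found in 33, 11 and 85 cells, a ratio of IR+CBD to IR of 10.1 (5.78 to 18.9), against 9.88 in the other kept cells. Xlr, of a family of X-linked lymphocyte genes, was highest in IR, with 1.14, 5.68 and 0.407 CPM in 6, 30 and 3 cells.

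Other high ratios were carried by a few cells with the RNA of another lineage. Prg2, the major basic protein of eosinophils, had 1.76, 1.84 and 172 CPM, a ratio of IR+CBD to IR of 93.2, but 98.9% of its UMIs in IR+CBD lay in 5 cells and 2912 in a single cell. Igkc, an immunoglobulin light chain, had 33.0, 40.8 and 402 CPM, of which 95.04% of the IR+CBD UMIs lay in 5 cells. Without the cells that held at least 20 UMIs per 10000 of granulocyte, monocyte, B, T or NK markers, which left 210, 368 and 369 members, these ratios of IR+CBD to IR were 1.21 and 1.35. The same holds for Cstdc5, a stefin expressed in neutrophils, whose 196 UMIs in IR lay in 6 cells. Granulocyte and monocyte markers summed to 48.7, 51.5 and 48.1 UMIs per 10000 over all members, the median member held 4 in each library, and the highest cells held 2012, 2532 and 1256. B cell markers summed to 2.02, 2.18 and 3.12 UMIs per 10000, with a median log2 ratio of -0.50 in IR+CBD over IR, and T and NK cell markers to 0.286, 0.421 and 0.594. The markers of the remaining types were close to 0, with 0.147 to 0.180 UMIs per 10000 for megakaryocytes, 0.0310 to 0.0401 for island macrophages and 0.115 to 0.173 for basophils and mast cells. Interferon and Car1 values were much the same without the cells that held this RNA: there, the interferon median of IR over Control was 1.65 and Car1 stood at 3513, 1827 and 2394 CPM.

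To describe how the members varied among themselves, they were ordered by the summed UMIs of 23 late erythroblast genes at 5000 UMIs per cell and cut into 3 bands of 363, 364 and 364 cells, a range of a score and not 3 types. In Control 51.7% of the members fell into the lowest band, in IR 25.3% and in IR+CBD 31.2%, while the highest band took 25.2%, 35.4% and 35.8%. The cuts fell at 10 and 18 UMIs per 10000, scores that cells on both sides of a cut shared. These shares therefore depend on how ties were placed, and no order of libraries is read from them. Without cuts, the median member held 10 (Control), 14 (IR) and 14 (IR+CBD) UMIs per 10000 of the list, with quartiles of 6 to 19.5, 10 to 23 and 8 to 24. The list holds Ube2l6 and Isg20, which interferon also induces. Without them the lowest band took 43.2%, 35.8% and 25.3% and the highest 22.6%, 35.6% and 37.0%. Ties can enter these shares as well, and why IR and IR+CBD changed places in the lowest band was not tested. Genes outside the list showed the 2 ends of the range. From the lowest to the highest band, Kit went from 95.9 to 36.0 CPM, Myb from 255 to 111 CPM, Tfrc from 172 to 307 CPM and Klf1 from 200 to 267 CPM. Hemgn, a nuclear protein of erythroid cells, went from 71.5 to 213 CPM, and Sox6, a factor of definitive erythroid maturation, from 9.54 to 96.2 CPM, a ratio of 10.1 (8.46 to 12.1). Mki67 went from 233 to 397 CPM, heme genes from 30.4 to 49.9 UMIs per 10000 and S phase genes from 44.1 to 59.6. In the other direction, Muc13, a surface mucin, went from 25.9 to 3.05 CPM and Apoe, apolipoprotein E, from 134 to 6.31 CPM. Granulocyte and monocyte markers went from 70.8 over 51.3 to 26.8 UMIs per 10000 from the lowest to the highest band, in Control from 85.0 to 6.28, and Prg2 from 202 to 2.31 CPM and Igkc from 470 to 41.9 CPM. The part of such cells in the differences between bands was not tested.

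Differences between the libraries were seen within every band. Car1 stood at 3832, 3473 and 2364 CPM in the lowest, middle and highest band of Control, at 2244, 1842 and 1234 CPM in IR and at 2675, 2400 and 1873 CPM in IR+CBD. It was lowest in the highest band of each library, and at each band Control was highest and IR lowest. The interferon list was flat along the range and set apart by library, with 10.8, 9.90 and 9.63 UMIs per 10000 in Control, 23.3, 23.9 and 25.6 in IR and 12.4, 13.9 and 11.9 in IR+CBD.

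**Figure D5:**
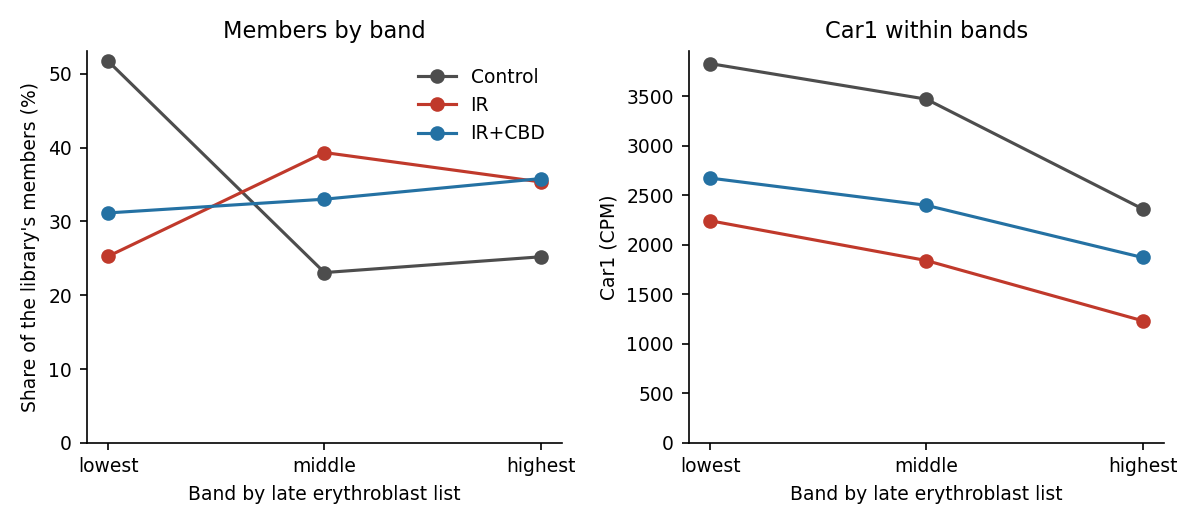
Share of each library's members (left, %) and Car1 level (right, CPM) in 3 bands of members ordered by late erythroblast genes, with 1 line per library. Control has 51.7% of its members in the lowest band against 25.3% in IR, shares that depend on how cells tied at a cut were placed. The Car1 lines fall from left to right without crossing, with Control on top and IR at the bottom.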

How the data were processed

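Single-cell libraries were made from the bone marrow of 1 pool of 3 mice per group with a droplet kit that the labels give as 3' V2. The authors deposited, for each of 3 libraries, a matrix of raw UMI counts per gene and cell without normalization, with barcodes already called as cells. Cell Ranger 7.0.1 stands in the matrix headers, a version that includes intronic reads unless told otherwise, whereas the submitters' processing notes name Cell Ranger 4.0 and GRCm39, so which version made the deposited counts is not settled here. The 56980 listed features include no symbol for the alpha globin chaperone.

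Kept cells had at least 200 genes and at most 5% mitochondrial UMIs, and no doublets were removed. UMIs were summed over the members of each library (9676057, 18476018 and 17190078) and given as CPM with exact Poisson 95% intervals. Ratios have exact conditional binomial intervals and shares exact Clopper-Pearson intervals, and PCR duplicates are removed by the UMIs. A gene was compared between libraries when their members held at least 100 UMIs of it together, and called higher or lower past 1.5-fold. Thinning drew 5000 UMIs per cell without replacement, and 1 shallower IR member was left out there. Phases came from scanpy 1.11.5 (score_genes_cell_cycle), with cells within 0.05 of a boundary counted as near it. The other tools were scipy 1.17.1, pandas 2.3.3 and numpy 2.4.6 under Python 3.11.15, with matplotlib 3.10.9 for figures. The scripts were tested on simulated data. Some genes and the results that need them are not reported here.

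Named genes were the gate genes and markers, examples of 34 lists by highest level and highest or lowest ratio, the 20 genes leading the members, and the 10 highest and 10 lowest genes of each comparison by the interval bound nearest to 1, of which some are given. Genes named for contrast or along the bands were chosen after their values were seen. The members, the lists and the tests were chosen with earlier results of these data known. Promoters came from RefSeq GRCm38.p6 by symbol and were not placed on the build of the counts.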

Additional observations from a re-analysis of the deposited data

Results flagged for a closer look

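Granulocyte and monocyte markers had medians of opposite sign in the members and in the other kept cells. In IR+CBD over Control the median log2 ratio of the list was -0.34 in the members and 0.34 in the other kept cells. In IR+CBD over IR it was -0.22 in the members and 0.22 in the other kept cells. Over the alternatives the members' medians ran from -0.44 to 0.66 and from -0.32 to 0.60, so no direction is read from them. In IR+CBD over Control 5 genes were past 1.5-fold higher and 5 lower, and the list summed to 48.7 UMIs per 10000 in Control and 48.1 in IR+CBD. The difference was not tested, since each group is 1 library, and in the members most of these UMIs lay in a few cells, as described above.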

How the results depend on the processing

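No paired analysis was possible because each group is 1 library. For the same reason no replicate could be left out. The alternatives were another mitochondrial limit (10%), a minimum of 1000 genes, removal of Scrublet doublets, the gate on cells thinned to 5000 UMIs, Klf1 at 3 or more UMIs, Ermap not used, scaling by the median ratio, a total without globin, ribosomal protein and mitochondrial UMIs, cells weighted equally, and 20 or 500 UMIs as the minimum per gene. The limit of 20000 UMIs per cell, the removal of cells with markers of other lineages and the late list without Ube2l6 and Isg20 were chosen after seeing the data. Of 2427 gene ratios recomputed, 2248 moved by less than their interval, 171 moved further and 8 changed direction. The cause was not tested except where fewer genes or cells entered by construction.

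The gate on thinned cells took fewer cells and a different mix, since Gata2-positive neighbours can enter it, and it changed most. It gave share ratios of 2.83 (IR over Control) and 0.752 (IR+CBD over IR). Its median log2 ratios were 0.0441 for heme in IR over Control, 0.0539, -0.0632 and 0.000378 for S phase in IR over Control, IR+CBD over IR and IR+CBD over Control, 0.21 for interferon in IR+CBD over Control, -0.92 and -0.16 for globins in IR+CBD over IR and over Control, 0.0372 for glycolysis in IR+CBD over IR, and -0.0435 and -0.0416 for membrane and CFU-E genes in IR+CBD over Control, with 89 genes higher in that comparison. Gene ratios that changed direction under it were Apoe (1.09) and Ccnd1 (0.905) in IR over Control, Igkc (0.0393) in IR+CBD over IR, and Hba-a1 (0.8002), Hba-a2 (0.909) and Hbb-bs (0.880) in IR+CBD over Control. Without Scrublet doublets the S phase medians were 0.0211 (IR+CBD over IR) and 0.14 (IR+CBD over Control), and Igkc stood at 0.855 in the latter. Without cells marked by other lineages Igkc stood at 0.819 there.

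Members called S phase were 8.97%, 10.3% and 9.77% after thinning and 12.02%, 12.8% and 10.4% without doublets, and G2/M 85.9%, 88.5% and 87.4% or 82.2%, 85.5% and 87.4%. With a minimum of 20 UMIs per gene, 876 genes were higher and 719 lower in IR over Control, 449 and 842 in IR+CBD over IR, and 641 and 792 in IR+CBD over Control. With 500 UMIs these were 71 and 27, 7 and 42, and 29 and 21, and the interferon median of IR over Control was 1.28. Weighting cells equally gave 91 genes higher in IR+CBD over IR. Among cells of 20000 or more UMIs the share ratio of IR+CBD to IR was 1.24.

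Shares refer to a sorted mix, and neither the difference between mice nor that between pools can be told apart from treatment. Genes under 100 UMIs were not compared, and at 5000 UMIs per cell a level of 1 UMI is 2 per 10000.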
